A study of Mus musculus with 2 samples.

Results

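The metalloproteases and their inhibitors in mouse skin were compared between animals with a permanently active aryl hydrocarbon receptor (AhR) in keratinocytes and animals without the transgene. Members were all genes on the array whose symbol begins with Mmp, Timp, Adam, Adamts or Adamtsl followed by a digit. The rule uses names alone, though it was chosen with earlier results of these data known. There were 56 such genes with 85 probe sets, among 12393 genes that could be named. They comprised 18 Mmp, 4 Timp, 25 Adam, 7 Adamts and 2 Adamtsl genes, and the mouse assembly GRCm38.p6 holds 85 protein-coding genes under the same name rule, of which these 56 had a probe set with a single gene.

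The study measured total RNA from back skin of 10-day-old mice on 2 single-colour arrays with a biotin label, 1 per group. The transgenic group carried an AhR that needs no ligand, expressed in keratinocytes. Its array is titled K14Ahr, and K14 is the usual short name of keratin 14, whose promoter is active in basal keratinocytes of the epidermis and the outer root sheath of hair follicles. The control group was non-transgenic wild-type littermates of the same age. Strain, sex and the number of animals behind each array are not given in the sources used here. Each group is a single array, so replicate error is unknown, no difference could be tested, and every value below describes these 2 arrays.

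Matrix metalloproteinases (Mmps) are zinc proteases, secreted or held at the cell surface, that cut collagens, laminins, cytokines and other proteins around cells. Most are made as inactive precursors, and the tissue inhibitors of metalloproteinases (Timps) block the active enzymes by binding the zinc site. ADAM proteases are membrane-bound and release the outer parts of growth factors, cytokines and adhesion proteins, while secreted ADAMTS proteases cut proteoglycans and procollagens. ADAMTS-like proteins share the ancillary domains of ADAMTS proteins but have no protease domain. In skin these enzymes are known from wound repair, hair growth and inflammation, where keratinocytes, fibroblasts and leukocytes each make some of them.

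Timp1 read 4.38-fold higher on the transgenic array, and no other member differed by 2-fold in either direction above the signal floor used here. The next highest ratios belonged to the proteoglycan-cleaving protease genes Adamts5 (1.89-fold) and Adamts4 (at least 1.63-fold), the stromelysin gene Mmp3 (1.64-fold) and the gelatinase gene Mmp9 (1.54-fold). By the probe set that stands for each gene, the 7 Mmp and 3 Timp genes above the floor on both arrays all read above equality. Of all genes above the floor on both arrays 43.3% did. Timp3 and Mmp24 were nearly even, and some other probe sets of Timp2 and Timp3 read slightly below equality. The log2 ratios of Mmp23, Mmp14 and Mmp8 were also under 0.26, the SD between probe sets of 1 gene. Mmp11, Mmp16 and Timp4 lay above the floor on the transgenic array alone, which fixed their direction. Of the 13 measured Mmp and Timp genes 3 were at least 1.5-fold higher, against 6.81% of all measured genes. None of the 10 measured ADAM genes was counted past 1.5-fold. The ADAM genes lay on both sides of equality and both Adamtsl genes lay below it.

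The promoters of the 3 members with the highest ratios for which a sequence was at hand are shown first. They are given because AhR with its partner Arnt is known to bind DNA at a core of GCGTG and because the AP-1 factors (Fos and Jun proteins), which act on many protease genes, bind TGANTCA. Each run is the 250 bases before the annotated start of the gene in RefSeq (GRCm38.p6), written 5′ to 3′ on the strand of the gene, with matches to either motif on either strand in capitals.
Timp1, chrX:20869916-20870165, plus strand: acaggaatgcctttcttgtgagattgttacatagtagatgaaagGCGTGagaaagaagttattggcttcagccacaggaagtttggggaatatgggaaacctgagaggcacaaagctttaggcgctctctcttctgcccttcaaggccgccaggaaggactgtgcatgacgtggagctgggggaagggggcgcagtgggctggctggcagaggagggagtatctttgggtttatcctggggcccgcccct
Mmp3, chr9:7445572-7445821, plus strand: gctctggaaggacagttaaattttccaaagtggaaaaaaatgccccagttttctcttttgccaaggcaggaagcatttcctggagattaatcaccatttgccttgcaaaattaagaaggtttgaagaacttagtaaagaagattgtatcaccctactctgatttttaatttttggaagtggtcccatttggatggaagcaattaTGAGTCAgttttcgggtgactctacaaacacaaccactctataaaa
Adamts1, chr16:85803114-85803363, minus strand: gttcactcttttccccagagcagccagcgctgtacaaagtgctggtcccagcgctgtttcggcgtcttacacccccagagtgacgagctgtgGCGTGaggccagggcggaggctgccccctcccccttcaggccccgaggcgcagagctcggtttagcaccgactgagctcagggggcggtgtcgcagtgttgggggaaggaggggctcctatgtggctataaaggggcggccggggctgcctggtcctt

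In these windows Timp1 held 1 GCGTG match, beginning at position -206 from the start, and Adamts1 held 1 at -158. Mmp3 held no GCGTG match and 1 TGANTCA match at -46. The 2 motifs share no position in the windows shown. A GCGTG match was present in 28.2% of the 32851 promoter windows of the table, in 43.7% of the 9197 windows of genes measured on these arrays and in 50% of the 20 windows of measured members. The share in measured members thus lay near that of other measured genes. TGANTCA was present in 6.75% of all windows and in 5% of those of measured members. A match describes the letters only and shows no binding.

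Among the members, TGANTCA matches lay mostly in 1 block of the genome. On chromosome 9 there is an unbroken run of 10 Mmp genes among the protein-coding genes, and 8 of the 12 promoter windows of that run held the motif, 66.7%, against 2 of 26 windows of the other members, 7.69%. The 8 matches began between -35 and -95. The surroundings of each, 27 bases 5′ to 3′ on the strand of the gene with the motif in capitals, are set side by side. The capitals are alike because the search required them. Mmp1b lies on the minus strand and the others on the plus strand.
Mmp13, chr9:7272469-7272495: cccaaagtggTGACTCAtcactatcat
Mmp12, chr9:7347320-7347346: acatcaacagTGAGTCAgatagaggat
Mmp1b, chr9:7388103-7388129: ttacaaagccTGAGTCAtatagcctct
Mmp3, chr9:7445766-7445792: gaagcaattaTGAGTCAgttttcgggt
Mmp1a, chr9:7464058-7464084: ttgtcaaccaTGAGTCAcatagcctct
Mmp10, chr9:7502269-7502295: agcacccatgTGAGTCAtgcttagtga
Mmp20, chr9:7628126-7628152: atttgagacaTGAATCAtcacttacag
Mmp7, chr9:7692017-7692043: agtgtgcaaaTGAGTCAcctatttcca

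Of these 8 genes only Mmp3 had a usable signal on the arrays. Of the 9 Mmp genes of the run that are on the array, 2 were measured (Mmp3 and Mmp8), against 7 of the 9 Mmp genes elsewhere in the genome. The other 7 of the run were the collagenase genes Mmp1a, Mmp1b and Mmp13, the stromelysin gene Mmp10, the macrophage elastase gene Mmp12, the enamel protease gene Mmp20 and the matrilysin gene Mmp7.

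A gene counted as measured when its brightest probe set lay above a floor on at least 1 array. That floor, 34.7, was set at the 40th percentile of the signals of both arrays, and a ratio with 1 array under it is a bound. Of the 56 members 30 were measured, 53.6%, against 71.7% of all named genes. All 4 Timp genes, both Adamtsl genes, 5 of 7 Adamts genes, 9 of 18 Mmp genes and 10 of 25 Adam genes were measured. The 26 unmeasured members read between 0.4 and 33.6, and no ratio is given for them. Beside the 7 of the chromosome 9 run they were Mmp17 and Mmp19, Adamts7 and Adamts8, and 15 Adam genes (Adam2, Adam3, Adam5, Adam7, Adam11, Adam18, Adam19, Adam21, Adam22, Adam23, Adam24, Adam25, Adam26a, Adam28 and Adam34). Most of these Adam genes are known for expression in testis and epididymis, and Adam11, Adam22 and Adam23 for expression in brain.

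Over the 30 measured members, 1 was higher by 2-fold or more (3.33%) and none was lower by as much. Among all 8887 measured genes 2.27% were higher and 1.08% lower by 2-fold or more, so the share of members past 2-fold lay near that of the array. At 1.5-fold 5 members were higher (16.7%) and none was lower, against 6.81% and 6.38% of all measured genes. In 6 of the 30 the ratio is a bound, so some of these may be past the limit without being counted. Many members are dim, and among the 4298 measured genes with a geometric mean signal under 100 the shares at 2-fold and 1.5-fold higher were 2.12% and 6.93%. Of the measured members 23 had a log2 ratio above 0, 76.7%, against 43.8% of all measured genes. For the 6 bounds the direction was fixed by which array lay above the floor. Of the 24 members above the floor on both arrays 19 had a log2 ratio above 0, 79.2%, against 43.3% of all such genes. The median log2 ratio was 0.19 for members and -0.05 for all measured genes, and it was 0.18 over the 29 members other than Timp1. As a technical scale, the log2 ratios of different probe sets of 1 gene had a pooled SD of 0.26 over 2533 genes, and of 0.29 over 727 genes when only signals under 100 were used. These spreads do not contain variation between animals.

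**Figure D1:**
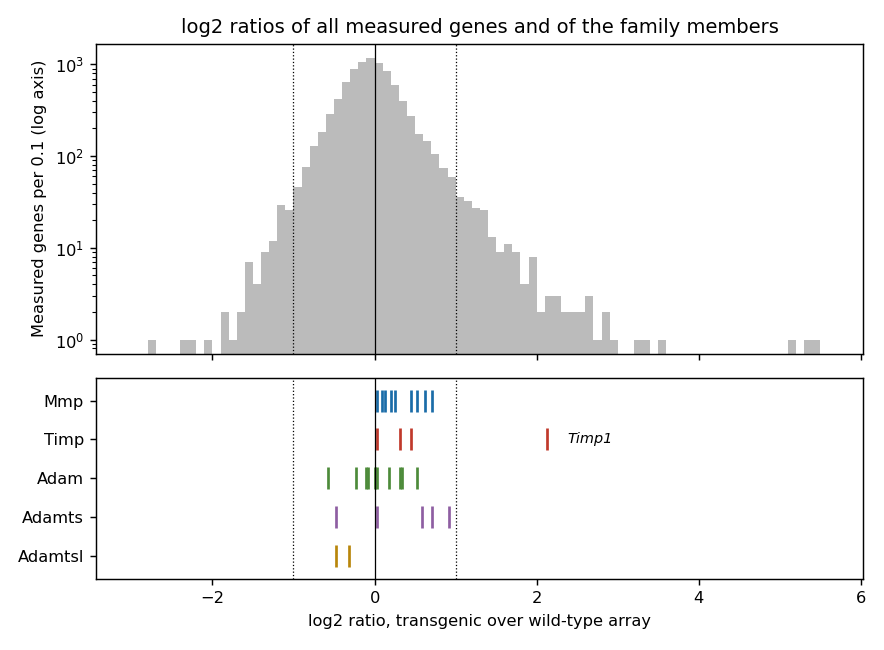
Upper panel, number of measured genes per 0.1 of log2 ratio (transgenic over wild-type array, count on a log axis); lower panel, 1 tick per measured member by family, with dotted lines at 2-fold. Timp1 at 2.13 is the 1 member past a dotted line, and the Mmp ticks all lie right of 0. For Mmp11 and Mmp16, above the floor on the transgenic array alone, that side was fixed by the floor.

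The inhibitors are taken first. Timp1, a secreted inhibitor that binds Mmp9 and its precursor and is known to be induced by inflammatory cytokines, read 179.2 on the transgenic and 40.9 on the wild-type array. Its log2 ratio of 2.13 was the 24th highest of the 8887 measured genes. It has 1 probe set, so no second reading on these arrays checks it, and its wild-type signal lay just above the floor. The log2 ratio was 1.34 when the floor was raised to the 60th percentile and 1.78 with a pseudocount of 16 in place of it.

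Timp2, which takes part in activating Mmp2 at the cell surface together with Mmp14, read 524.3 against 421.7 by its brightest probe set (log2 ratio 0.31). Its 5 measured probe sets ran from -0.03 to 0.43 and pointed in both directions. Timp3, a matrix-bound inhibitor that also blocks Adam17, Adamts4 and Adamts5, read 405.4 against 397.5 (0.03). Its other 3 probe sets gave -0.03, -0.01 and 0.23, so all 4 stayed within the technical spread of equality. Timp4 read 47.2 against 22.0, with the wild-type value under the floor, and its log2 ratio was at least 0.44. By this probe set it was 1.10 when the floor was lowered to the 20th percentile (11.9). The other probe set of Timp4, at 28.2 against 23.1, lay under the main floor on both arrays but above the lower one. Of the 3 inhibitors above the floor on both arrays, Timp1 was the 1 past 1.5-fold.

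**Figure D2:**
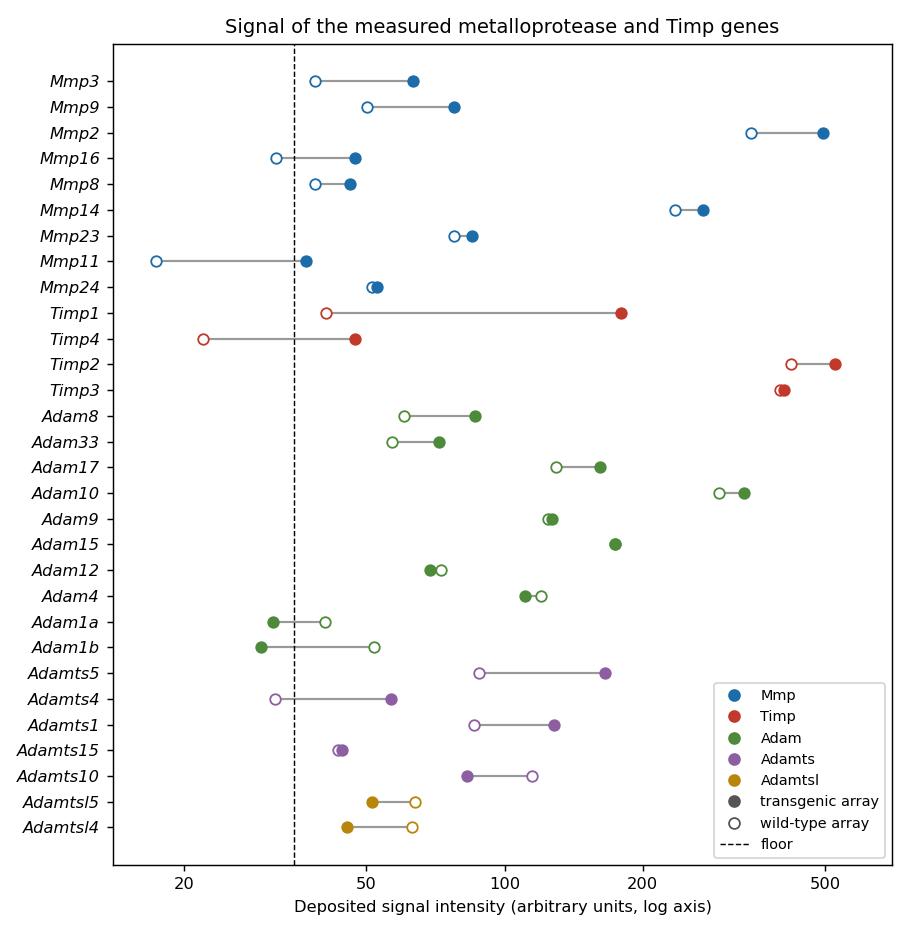
Deposited signal (arbitrary units, log axis) of the 30 measured members on the transgenic array (filled) and the wild-type array (open), coloured by family and ordered by ratio within it, with the floor of 34.7 dashed. The widest gap is that of Timp1, from 40.9 to 179.2, and many other members lie between the floor and 100.

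Among the gelatinases, which cut denatured collagen and basement membrane collagen, Mmp2 read 492.9 against 343.7 (log2 ratio 0.52) and its other probe set 280.6 against 226.8 (0.31). Both probe sets of Mmp2 were thus higher on the transgenic array, by less than 1.5-fold. Mmp9, a gelatinase of neutrophils, macrophages and migrating keratinocytes, read 77.4 against 50.1 (0.63). Its other probe set lay under the floor on both arrays at 16.6 and 5.0. The log2 ratio of Mmp9 was 0.13 when the floor was raised to the 60th percentile, since its wild-type signal then lay under that floor.

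Mmp3, a stromelysin that cuts matrix proteins and activates other Mmp precursors, read 63.3 against 38.7 (log2 ratio 0.71). Mmp11, a stromelysin known from stromal fibroblasts, read 37.0 against 17.4, at least 0.09 and 1.09 with the floor lowered to the 20th percentile. Mmp8, the collagenase of neutrophil granules, read 46.0 against 38.7 (0.25). All 3 were close to the floor on the wild-type array or under it. They rest on 1 probe set each.

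Of the membrane-type Mmps, Mmp14, a collagenase and activator of Mmp2, was bright and nearly even at 270.2 against 234.9 (log2 ratio 0.20), and its other probe set read 71.3 against 71.2 (0.00). Mmp16 read 47.3 against 31.8, at least 0.45, while its other probe set lay under the floor on both arrays. Mmp24 read 52.6 against 51.5 (0.03). Mmp23, a protease with a membrane-anchored precursor, read 84.9 against 77.6 (0.13). The 9 measured Mmp genes had a median log2 ratio of 0.25, with none below 0. That direction was fixed by the floor for Mmp11 and Mmp16, while the other 7 lay above it on both arrays. Of the 9 genes 2 (Mmp3 and Mmp9) were at least 1.5-fold higher, against 6.81% of all measured genes.

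Of the 5 ADAMTS genes on the array whose proteases cut large proteoglycans such as versican and aggrecan, 4 were measured. Of these 2, Adamts5 and Adamts4, were at least 1.5-fold higher, against 6.81% of all measured genes. Adamts5 read 165.8 against 87.8 (log2 ratio 0.92), the second highest ratio of all members. Its other probe set read 63.4 against 54.0 (0.23), so the 2 shared a direction but not a size, and their mean was 0.57. Adamts4 read 56.5 against 31.6, at least 0.70, with its other probe set under the floor on both arrays at 12.1 and 2.0.

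Adamts1, which is also known for its antiangiogenic repeats, read 128.4 against 85.8 (log2 ratio 0.58), just under the 1.5-fold limit of 0.585. Adamts15 was even at 44.2 against 43.4 (0.03). Adamts10, whose product binds fibrillin microfibrils, was lower at 82.6 against 115.0 (-0.48). The 5 measured Adamts genes had a median of 0.58. The ADAMTS-like genes, also linked to microfibrils, read 45.3 against 62.8 for Adamtsl4 (-0.47) and 51.3 against 63.9 for Adamtsl5 (-0.32). Each of the last 3 genes rests on 1 probe set, and none was past 1.5-fold.

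Of the 10 measured ADAM genes, the 8 above the floor on both arrays all lay within 1.5-fold of equality. The log2 ratios of the 10 ran from at most -0.58, a bound for Adam1b, to 0.52, with a median of 0.02. Adam10, a main sheddase of Notch receptors and cadherins, read 332.1 against 293.7 (0.18). Its other probe sets gave 0.16 and 0.89, the latter from signals of 73.2 against 39.4. Adam17, which releases tumor necrosis factor and epidermal growth factor receptor ligands, read 161.0 against 129.3 (0.32), with 0.09 and 0.31 from its other probe sets. All 3 readings of each gene lay above 0.

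Adam15, a disintegrin protease of epithelium and endothelium, was even at 174.1 against 173.7 (log2 ratio 0.00), and its other 2 measured probe sets gave -0.08 and -0.24. Adam12, a protease of mesenchymal cells, read 68.9 against 72.7 (-0.08) by its brighter probe set and 64.5 against 41.9 (0.62) by the other. Its direction is therefore not settled by these arrays. Adam8, a protease of leukocytes, read 86.4 against 60.3 (0.52), the highest of the measured ADAM genes. Adam33, an ADAM of mesenchymal cells, read 71.8 against 56.9 (0.34), and Adam9, a widely expressed ADAM, 126.8 against 124.1 (0.03). The 3 measured members known mainly from the reproductive tract all read lower on the transgenic array, a direction fixed by the floor for Adam1a and Adam1b. Adam4 read 111.0 against 119.8 (-0.11). Adam1a read 31.3, under the floor, against 40.7, a log2 ratio of at most -0.23. Adam1b read 29.5, also under the floor, against 51.8, at least 1.49-fold lower, and it was past 1.5-fold when the floor was lowered to the 20th percentile.

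**Figure D3:**
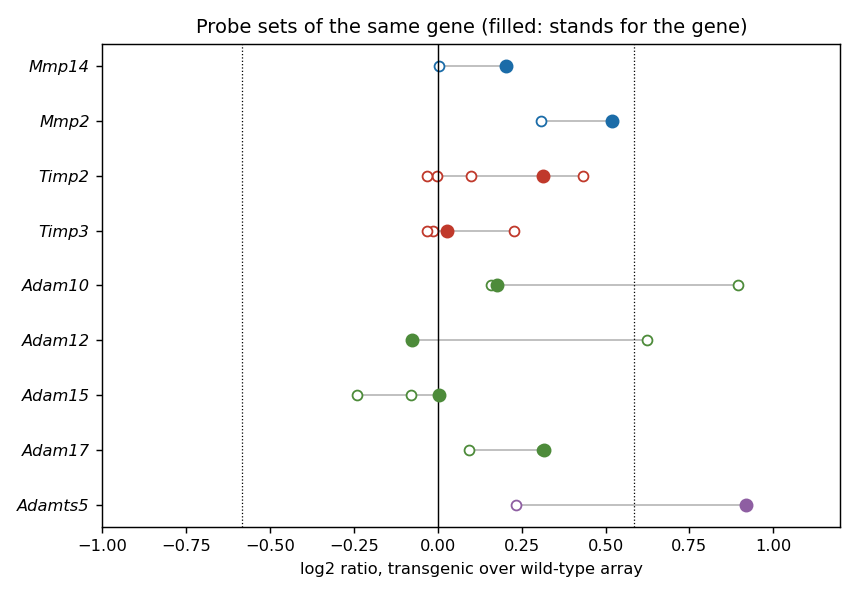
log2 ratio (transgenic over wild-type array) of each measured probe set for the 9 members with more than 1, with the probe set that stands for the gene filled and 1.5-fold dotted. Probe sets of Adam10, Adam12 and Adamts5 lie far apart, and both probe sets of Mmp2 lie right of 0.

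Over all members, 41 probe sets lay above the floor on both arrays. Their log2 ratios had a median of 0.16, with 30 above 0 and 11 below 0. The median was -0.05 when every non-control probe set that passed the same limit was taken. Of the 41, 26 came from 9 members with more than 1 each, so the split counts these members several times. Within these 9 members the pooled SD was 0.26, the same as over all genes. The readings of dim members such as Mmp3, Mmp8 and Mmp9 depend on the floor more than those of bright ones.

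Genes that work with these proteases were taken as lists. For comparison with their counts, 2.27% of all measured genes were higher and 1.08% lower by 2-fold or more. Of the 6 measured plasminogen activation genes, whose protease plasmin activates Mmp precursors, none was past 2-fold and the median log2 ratio was 0.27. The annexin A2 complex that captures plasminogen at the cell surface was highest, with Anxa2 at 0.83 and S100a10 at 0.73, while Serpinf2, the plasmin inhibitor, was at -0.07 and Plat, the tissue plasminogen activator, at -0.34. Plau, the urokinase gene, lay under the floor on both arrays (29.7 and 24.3). Of 8 measured other inhibitors and inducers, 2 were higher by 2-fold or more and none lower, with a median of 0.30. These were Thbs1, the thrombospondin gene, at 250.6 against 79.9 (1.65), and Lcn2, whose product binds Mmp9, at 106.7 against 7.6 (at least 1.62). Reck, a membrane-anchored Mmp inhibitor, was at -0.15 and Spock1 at -0.52.

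Furin and related convertases cut the precursors of membrane-type Mmps, ADAMs and ADAMTSs. All 4 measured convertases lay within 1.5-fold, from Furin (log2 ratio 0.39) and Pcsk5 (at least 0.19) to Pcsk6 (-0.01) and Pcsk7 (-0.37), with a median of 0.09. The 9 measured partners of the sheddases Adam10 and Adam17 and of invadopodia had a median of -0.05. Frmd8 (0.38) and Tspan14 (0.22) were highest, and Sh3pxd2a (at most -0.49) and Tspan10 (-0.68) lowest. Of the other metzincin proteases 3 were measured, with a median of 0.00: Pappa at least 0.08, the procollagen protease gene Bmp1 0.00 and Mep1a -0.25.

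Among 23 measured genes of membrane proteins known to be shed, 2 were higher and 1 lower by 2-fold or more. Past 1.5-fold 6 were higher and 1 lower, and the median log2 ratio was 0.27. The shares of all measured genes were 2.27% and 1.08% at 2-fold, and 6.81% and 6.38% at 1.5-fold. The receptor ligand gene Epgn (2.64) and the chemokine gene Cxcl16 (1.30) were highest. Tgfa, an epidermal growth factor receptor ligand, was at -0.30, and Kitl, the stem cell factor gene, read 100.8 against 222.6 (-1.14). Of 18 measured matrix substrates 1 was at least 2-fold higher and none lower, and the median was 0.22. The wound matrix gene Tnc (1.24) and the hemidesmosome collagen gene Col17a1 (0.69) were highest, and the elastin gene Eln (-0.28) and Col1a1 (-0.54), of the main dermal collagen, lowest. The summed signal of the matrix substrates was 12979 on the transgenic and 12972 on the wild-type array.

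Of 17 measured transcription factors of protease genes, 2 were higher and 1 lower by 2-fold or more. The shares of all measured genes were 2.27% and 1.08%, and the median log2 ratio of these factors was 0.13. Stat3 (1.25) and Fos (1.06) were highest, and Arnt (-0.16) and Hif1a (-1.11) lowest. The 8 measured inducing cytokine genes had a median of 0.41 with none past 2-fold. Il1b was at 0.61 and Il1a at least 0.51, while Tgfb3 was at 0.08 and Egf, which is also among the shed proteins, at -0.21.

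**Figure D4:**
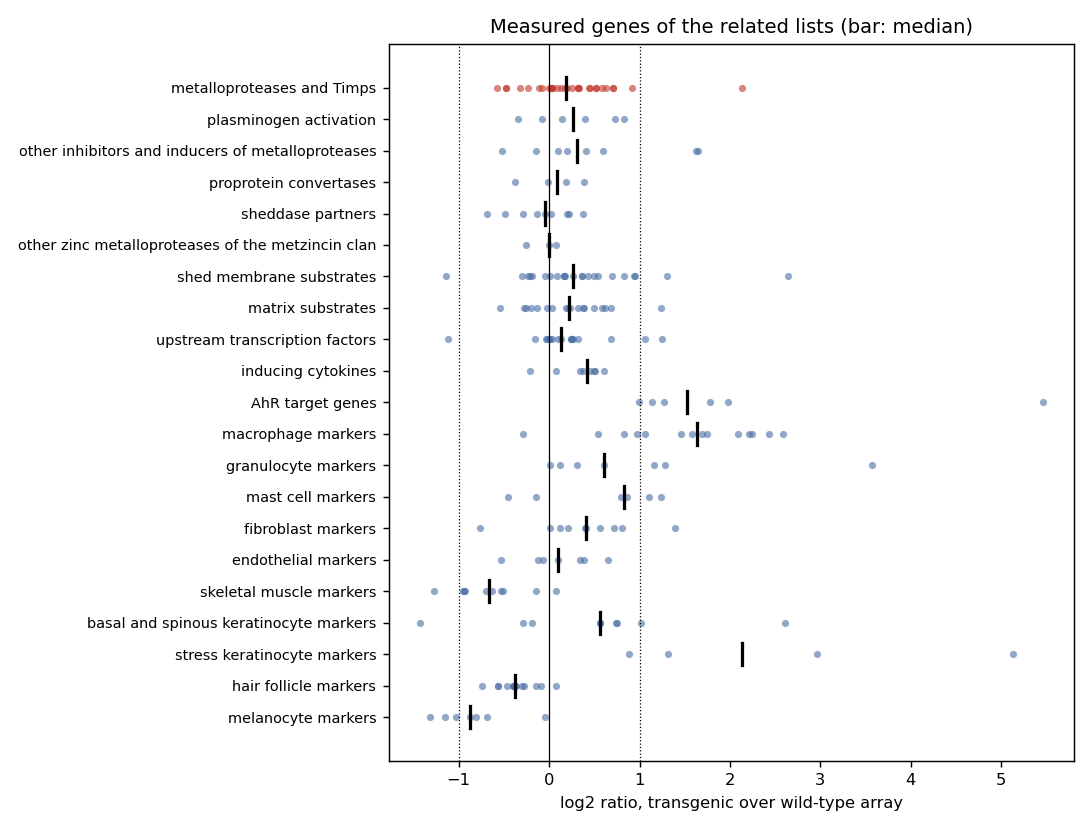
log2 ratio (transgenic over wild-type array) of every measured gene of the 20 related lists, 1 point per gene, with the median as a bar and 2-fold dotted; the metalloproteases and Timps are in red at the top. Their median of 0.19 is well left of the macrophage median of 1.64 and right of the melanocyte median of -0.88.

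Signals of cell type markers differed between the 2 skins. In whole tissue the number of cells of a type and the RNA per cell cannot be told apart. For the marker counts here and below, 2.27% of all measured genes were higher and 1.08% lower by 2-fold or more. Macrophage markers summed to 3198 on the transgenic and 1010 on the wild-type array, with 10 of 14 measured genes higher by 2-fold or more and a median log2 ratio of 1.64, led by C1qa (2.59) and Mrc1 (2.43) and ending with Adgre1 (0.54) and Msr1 (-0.29). Aif1 lay under the floor on both arrays. Granulocyte markers summed to 1765 and 650.6, with 3 of 7 at least 2-fold higher and a median of 0.61. S100a9 (3.57), which keratinocytes make too, and Ngp (1.28) led, Csf3r was at least 0.12 and Mpo 0.01, and Elane and Cxcr2 lay under the floor. S100a8, at 859.6 against 384.5 (1.16), was the largest term of both sums, and S100a9 read 481.3 against 40.4. The part of keratinocytes in the signals of S100a8 and S100a9 was not tested. Mast cell markers summed to 932.5 and 556.0, with 2 of 6 at least 2-fold higher and a median of 0.83, from Mcpt4 (1.23) and Cpa3 (1.10) to Ms4a2 (-0.15) and Kit (-0.46), with Hdc and Fcer1a under the floor. No marker read exactly 0. The summed signals of all 3 leukocyte lists were higher on the transgenic array, although single markers such as Kit, Msr1, Ms4a2 and Mpo were lower or even. With 1 array per group, those sums coincide with every gene that read higher there. The part of these cells in the ratios of the metalloproteases was not tested.

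Fibroblast markers summed to 3282 and 2289, with 1 of 10 at least 2-fold higher and a median log2 ratio of 0.40, from Pdgfra (1.40) and Thy1 (0.80) to Pdgfrb (0.01) and Fap (-0.77). The part of fibroblasts in the ratios of the metalloproteases was not tested. Stress keratinocyte markers summed to 7956 and 2731, with 3 of 4 at least 2-fold higher and a median of 2.14, Krt6b (5.13) and Krt16 (2.96) above Krt6a (1.31) and Krt17 (0.88). Basal and spinous markers summed to 13600 and 8082, with 2 of 9 higher and 1 lower by 2-fold or more, and a median of 0.56, from Krt1 (2.61) and Itgb4 (1.02) to Trp63 (-0.29) and Krt15 (-1.43). Keratinocytes are thus plainly present in both samples.

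Endothelial markers were nearly even, with sums of 533.3 and 493.3 and a median log2 ratio of 0.10 over 7 genes, from Kdr (0.66) and Cdh5 (0.38) to Eng (-0.13) and Tek (at most -0.54), and Vwf and Tie1 under the floor. Skeletal muscle markers summed to 5231 and 6780, with 1 of 10 at least 2-fold lower and a median of -0.66, from Acta1 (0.07) and Tnnt3 (-0.15) to Des (-0.95) and Myh8 (at most -1.27). Hair follicle markers summed to 25534 and 30806 with a median of -0.38 over 14 genes and none past 2-fold, from Krt71 (0.08) and Krt27 (-0.09) to Krt33b (-0.57) and Msx2 (-0.74). Melanocyte markers summed to 1280 and 2509, with 3 of 7 at least 2-fold lower and a median of -0.88, from Sox10 (-0.05) and Gpr143 (at most -0.69) to Tyrp1 (-1.15) and Tyr (-1.31). The part of these tissues in the ratios of the metalloproteases was not tested.

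As a check of the labels, 5 of 6 measured AhR target genes were at least 2-fold higher on the array labelled transgenic and none lower. The shares of all measured genes were 2.27% and 1.08%, and the median log2 ratio of the targets was 1.53. The xenobiotic enzyme gene Cyp1a1 was at 5.46 and Cyp1b1 at 1.98, above Tiparp (1.14) and Xdh (0.998, just under 2-fold), and Cyp1a2 and Ahrr lay under the floor. The 22690 signals of the transgenic array had a median of 49.1 and a maximum of 4995, and those of the wild-type array 50.7 and 4587.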

How the data were processed

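The authors deposited 1 linear intensity for each probe set. These intensities had been scaled beforehand, since their 2% trimmed means were 100.03 on both arrays, with software not given in the sources used here. Of 22690 probe sets 64 were controls. The platform annotation, of 2016, paired 20380 of the others with a single gene, 691 with several and 1555 with none, and only the first were named. Symbols were updated by gene identifier to GRCm38.p6, and 29 probe sets without a match kept the older symbol. Signals were rescaled to equal 2% trimmed means, raised to the floor (34.7) and log2-transformed. The probe set with the largest sum over both arrays stands for a gene, and signals of different probe sets are not levels that can be ranked between genes. With 1 array per group no test was run. The calculation was tested on simulated data in which only genes with a geometric mean signal over 100 were changed. That test does not cover changes in dim members.

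Values are given for every measured Mmp and Timp, every other member past 1.5-fold, the 3 brightest of each family, members whose measured probe sets point in opposite directions by over 0.3, and the 2 highest and lowest of each list. Adam8, Adam9, Adam33, Adam4, Adam1a, Adam1b, Adamts15 and the unmeasured or additional list genes given with values (such as Plau) are outside this rule and were added after their values were seen. Members and the 20 lists were chosen with earlier results of these data known. A planned description of protein sequences was not made, because no protein table was used here. Promoters are from RefSeq (32 members matched). Alternatives were other scalings, floors, a pseudocount, and other treatment of a gene's probe sets. Python 3.11.15, pandas 2.3.3, numpy 2.4.6 and statsmodels 0.14.6 were used.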

Additional observations from a re-analysis of the deposited data

How the results depend on the processing

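Under 8 of the 9 alternatives Timp1 was the only member past 2-fold. Lowering the floor to the 20th percentile (11.9) gave 41 measured members, of which 3 were past 2-fold, all higher (Timp1, Timp4 at a log2 ratio of 1.10 and Mmp11 at 1.09), and past 1.5-fold 9 were higher and 2 lower (Adam1b and Adam21). Raising the floor to the 60th percentile (70.7) left 18 measured members, of which 2 were at least 1.5-fold higher, Adamts5 and Timp1. The share of all measured genes was then 6%. The remaining alternatives gave 4 to 7 members past 1.5-fold, against 6.32% to 7.8% of all measured genes at least 1.5-fold higher. The members were not the same throughout. With the pseudocount of 16 Mmp3 (0.54) and Mmp9 (0.50) fell short of 1.5-fold, while Mmp11 and Timp4 passed it. As a mean over probe sets Adamts5 (0.57) fell short of it. Under some scalings Adamts1 or Adam8 also passed it. No log2 ratio past 1.5-fold changed sign, while the small ones of Adam12 (0.27 as a mean over probe sets) and Adam15 (-0.11) did. Of 197 alternative log2 ratios of the 23 genes named by rule, 188 moved by less than the spread between probe sets (0.26) and 9 by more. No paired analysis was possible because each group has 1 array. Signals near the floor limit the dim members, and 6 of the 30 ratios are bounds.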
